A study of Rattus norvegicus with 4 samples.

Results

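The absorptive cells at the surface of the distal colon carry a brush border, a carpet of microvilli that faces the gut lumen, and the genes described here build it or mark the cells that bear it. They were taken as 10 named genes for microvillus adhesion (Cdhr2, Cdhr5, Ush1c), the actin core and its motor (Vil1, Pls1, Myo1a), membrane linkage (Ezr), the surface coat (Muc13) and the surface or absorptive cell state (Krt20, Fabp2). A gene counted as measured where a row of the table carried its symbol and no other, and the row with the highest mean was used for a gene with several. By this rule 8 of the 10 were measured, among 13215 named genes in all, and Vil1 and Pls1 were not analysed here.

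Each microvillus is held up by a core of bundled actin filaments. Ezrin and class I myosins tie that core to the membrane, and protocadherins at the tips link neighbouring microvilli so that they pack evenly. Colonocytes acquire this apparatus as they leave the crypt and climb to the surface, which is why its genes are read as signs of a mature surface cell. The distal colon is also a target of aldosterone, the adrenal steroid that raises sodium uptake through channels in that same apical membrane.

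The RNA came from surface colonocytes of 4 Wistar rats aged 12 weeks, hybridized to 1 Affymetrix exon array per rat. Every rat, control or treated, had both adrenal glands removed 4 days earlier and drank 0.9% NaCl. The 2 aldosterone rats were injected with 50 µg of the hormone per 100 g of body weight and carried an osmotic minipump that released 10 µg/kg each hour. The 2 vehicle rats received injections and pumps with the vehicle (PEG300 in the pumps). After 2 h the distal colons were turned inside out and shaken for 40 min, with 100 nM aldosterone for the treated group and vehicle for the other, and the cells that came off were used. The labels describe the rats of a group as biological replicates. The comparison asks whether the hormone changed the genes of the apical surface within that time. Values are log2 levels, given for replicate 1 and then replicate 2 of a group, and differences are aldosterone minus vehicle. A level can be compared between rats for 1 gene, but not between genes, because the probes differ.

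Most surface colonocyte markers gave a high signal in these cells. Because probes differ between genes, the counts below describe signal on the array and do not measure shares of cell types. Of 17 measured surface colonocyte markers, 16 had a mean of 7 or more, a level that 7.77% of all rows exceed. Among them were Slc26a3, the chloride-bicarbonate exchanger, Epcam, an epithelial adhesion gene, and Lypd8, which encodes a secreted surface protein. Of 46 measured markers of other cells, 33 had a mean below 3, near the arrays' floor. That is little more than the share of all rows that lie there, 65.0%. These included 10 of 13 markers of the crypt base and of dividing cells, 8 of 10 of immune cells, 7 of 8 of stroma, muscle and vessels and 6 of 7 of enteroendocrine cells. The highest means in these 4 lists were those of Pcna (4.90), Lyz2 (3.61), Col1a2 (3.05) and Cck (6.42). Of 3 tuft cell markers 1 lay below 3 (Pou2f3, at 2.74), while Dclk1 and Trpm5 lay at 3.42 and 3.41. Of 5 goblet cell markers 1 lay below 3, and 3 had a mean of 7 or more (Tff3, Atoh1 and Agr2). In this mixture of cells, fewer cells of a type and less RNA per cell cannot be told apart. The hormone effect was visible in the same arrays. Sgk1, the kinase that keeps the sodium channel at the membrane, stood at 10.51 and 10.64 in vehicle rats and 12.54 and 12.52 in aldosterone rats. Scnn1g, a subunit gene of that channel, stood at 2.05 and 2.03 against 6.65 and 7.61.

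**Figure D1:**
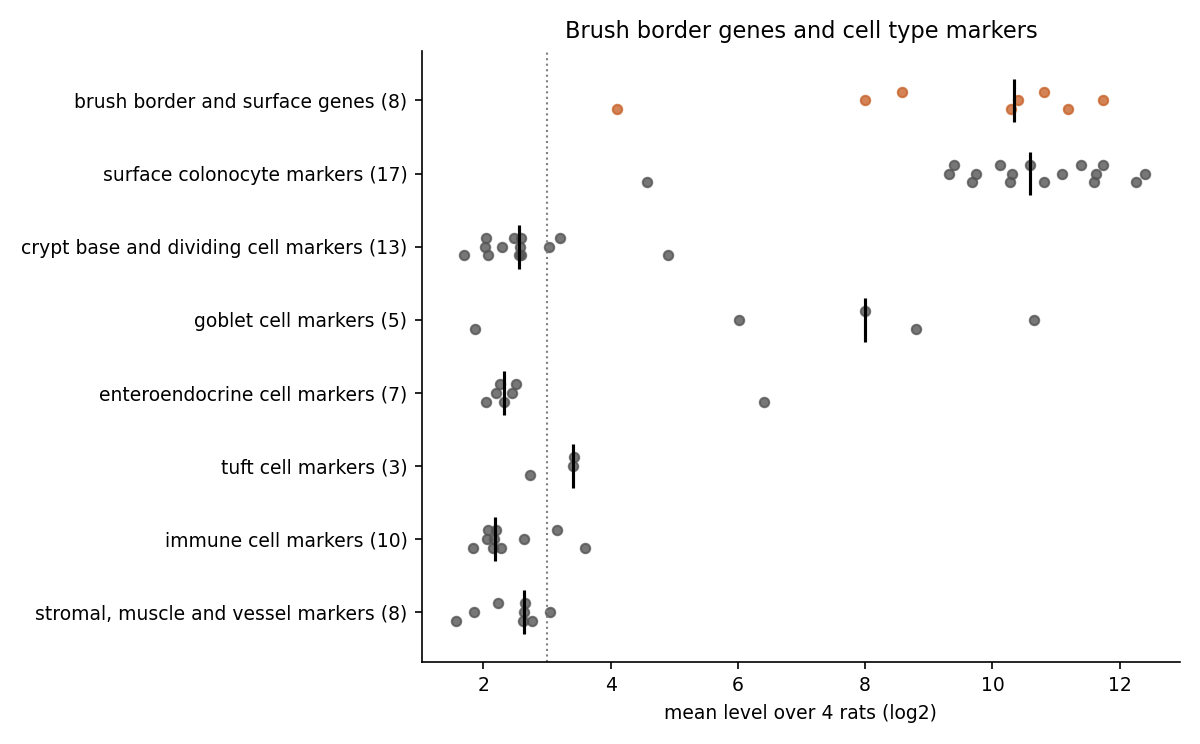
Mean level over the 4 rats (horizontal axis, log2) of each measured brush border and surface gene and of each measured marker of the cell types of the colon; 1 point is 1 gene, the black bar is the median of a list, the number in brackets is its count of genes, and the dotted line marks a level of 3. Surface colonocyte markers lie far to the right of the line apart from 1 gene, and 33 of the 46 markers of other cells lie to its left.

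No change in the brush border and surface genes was detected under aldosterone. In limma with the constant prior variance, 0 of the 8 genes reached an adjusted p below 0.05 (the smallest was an adjusted p of 0.891), and 1 of them, Fabp2, had an unadjusted p under 0.05. The background for these counts is that 0% of the 19403 rows passed the adjusted threshold and 4.53% had an unadjusted p under 0.05. At that threshold the constant prior did not call Sgk1 or Scnn1g either (limma, adjusted p = 0.332 and 0.402). With a prior that followed expression level, 0.108% of rows passed, Sgk1 and Scnn1g among them (adjusted p = 0.000558 and 6.95e-05). Again none of the 8 genes passed, with Fabp2 alone under 0.05 unadjusted. The median difference over the 8 genes was 0.13, against 0.024 over all rows and -0.015 over the 1507 rows whose mean was at least 7. The difference was above 0 in 7 genes and below it in Muc13. Above 0 were 58.3% of all rows and 48.0% of those 1507 rows. Centring each array on its median over all rows, a level near the floor, left 6 above 0, Myo1a being the gene that turned. Centring on rows whose mean was at least 4 left 7 above 0. Apart from Fabp2, the furthest from 0 was Ezr, at 1.14-fold.

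The data set limits on what could have been missed. For 7 of the 8 genes the 95% interval of the difference lay inside a 2-fold change in either direction, and this held with both priors. Of the 1507 rows whose mean was at least 7, 70.5% had such an interval with the constant prior and 72.5% with the prior that followed level. Rats of the same group were also close to each other. The 2 vehicle rats differed by a median of 0.13 over the 8 genes and the 2 aldosterone rats by 0.15. The corresponding medians were 0.27 and 0.26 over those 1507 rows. An interval of this width still leaves room for a change of 1.4-fold in most of these genes.

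**Figure D2:**
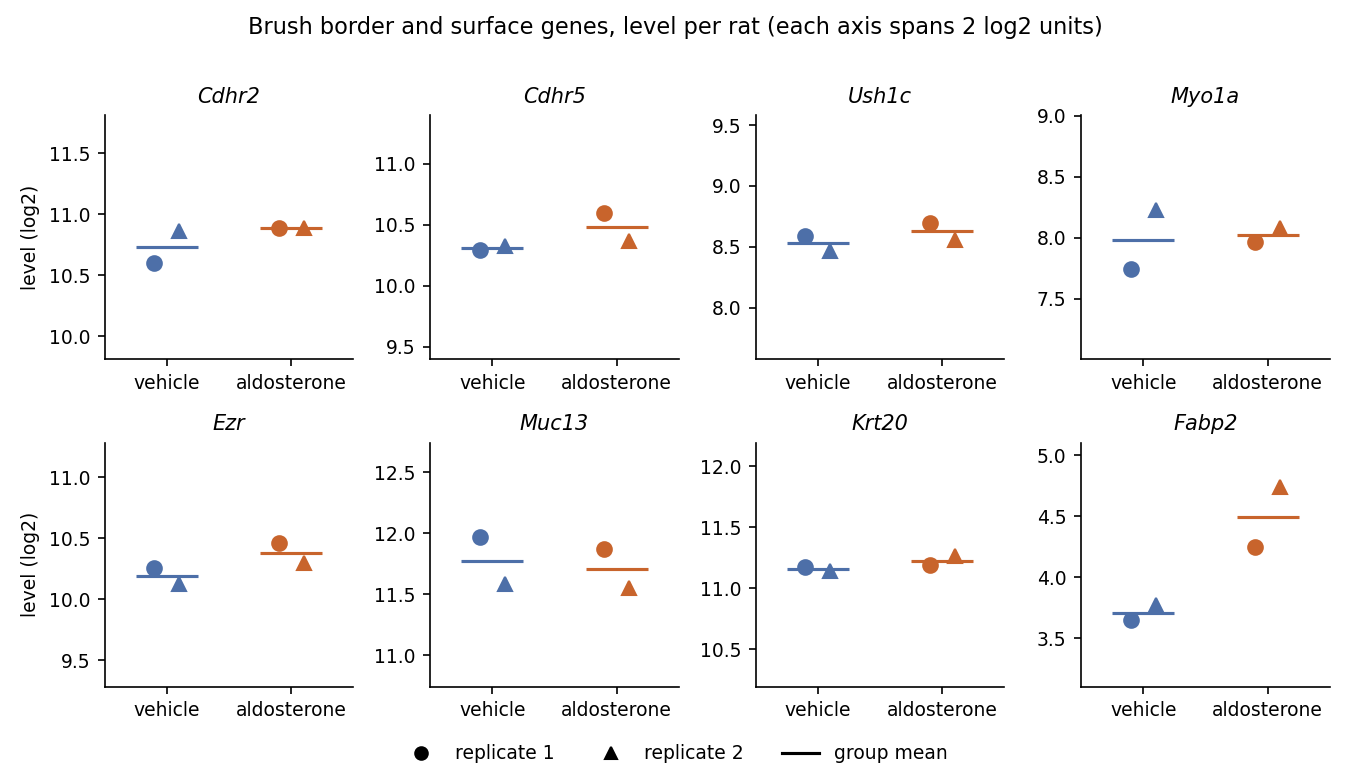
Level (vertical axis, log2) of the 8 measured genes in each rat, circles for replicate 1 and triangles for replicate 2 of the vehicle (blue) and aldosterone (orange) groups, with the group mean as a line; every panel spans 2 log2 units around its own mean. The group means lie close together in 7 panels, although in Cdhr2, Cdhr5, Ezr and Krt20 both treated rats are narrowly the higher ones. Fabp2 stands at 4.25 and 4.74 with aldosterone against 3.65 and 3.77 with vehicle.

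The tip links between microvilli are made by Cdhr2 and Cdhr5, protocadherins that reach across from neighbouring microvilli, and are anchored inside the cell by Ush1c, the scaffold protein harmonin. Cdhr2 (row 7162144) stood at 10.60 and 10.87 in vehicle rats and 10.89 and 10.89 in aldosterone rats. Both treated rats lay above both controls, but the upper control was 0.019 below the nearest of them. The difference was 0.15 with an SE of 0.13, and its 95% interval ran from -0.21 to 0.52 (limma, adjusted p = 1.00). Cdhr5 (row 7058761) stood at 10.29 and 10.33 in vehicle rats and 10.60 and 10.37 in aldosterone rats. The treated rats were again the higher ones, replicate 2 by little, with a difference of 0.17 and an interval from -0.17 to 0.52. Ush1c (row 7051138) stood at 8.59 and 8.47 in vehicle rats and 8.70 and 8.55 in aldosterone rats. Its groups overlapped, and its difference was 0.097 with an interval from -0.22 to 0.42. All 3 intervals held 0. Myo7b, the motor that carries this complex to the tips and the other measured gene of it, stood at 8.60 and 8.28 against 8.27 and 8.06. Its difference of -0.27 had the opposite sign from those of its 3 partners, and its interval from -0.72 to 0.18 also held 0.

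Cdhr2 was the only measured gene of the 8 with a match to the half-site of the corticosteroid response element (TGTTCT on either strand) in the 250 bases before its start. The full palindromic element, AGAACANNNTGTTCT, had no match in any of the 8, and 0.012% of 33469 rat promoters in RefSeq held it. The half-site is common, at 17.5% of those promoters. The sequence is shown because the hormone of this study acts through receptors known to bind such elements. It is from RefSeq (GRCr8, chr17:9917699-9917948, minus strand), with the half-site and, before it, a half-site of the enterocyte factor HNF4 (CAAAGT, in 12.9% of promoters) in capitals.
Cdhr2: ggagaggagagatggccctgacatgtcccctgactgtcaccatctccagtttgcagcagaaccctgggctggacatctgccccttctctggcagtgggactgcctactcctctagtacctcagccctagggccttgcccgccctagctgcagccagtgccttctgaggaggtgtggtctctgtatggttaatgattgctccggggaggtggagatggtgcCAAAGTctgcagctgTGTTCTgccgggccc
A match of letters is a description and not a bound site.

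The actin core was represented by Myo1a, the class I myosin that bridges the bundle to the microvillus membrane along its length. Myo1a (row 7315929) stood at 7.74 and 8.23 in vehicle rats and 7.96 and 8.08 in aldosterone rats. The treated rats lay between the 2 controls, whose gap of 0.49 was the widest of any of the 8 genes within the vehicle group. The difference was 0.037 with an SE of 0.20 and an interval from -0.51 to 0.59. After each array was centred on its median over all rows it was -0.021, and after centring on rows whose mean was at least 4 it was 0.083. It ran from -0.21 to 0.28 when 1 rat was left out. The lowest value came without vehicle replicate 1 and the highest without vehicle replicate 2.

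Ezr encodes ezrin, which links actin filaments to membrane proteins and is the main protein of its family in intestinal epithelium. Ezr (row 7046271) stood at 10.25 and 10.13 in vehicle rats and 10.46 and 10.30 in aldosterone rats. The groups did not overlap, with 0.044 between the nearest rats. The difference was 0.19 with an SE of 0.12 and an interval from -0.14 to 0.52 (adjusted p = 1.00). Nherf1, the scaffold that ezrin holds under the membrane, stood at 10.95 and 10.83 in vehicle rats and 10.82 and 10.68 in aldosterone rats. It was the lower in the treated group, with a difference of -0.14 and an interval from -0.45 to 0.17. Nherf2, a second scaffold of that family, stood at 2.53 and 2.57 against 2.84 and 2.83. Its treated rats were the higher ones, but the row lay near the floor, and its interval of 0.023 to 0.55 became -0.17 to 0.75 with the prior that followed level. The relatives of ezrin, Msn and Rdx, which encode moesin and radixin, lay at means of 2.94 and 3.62. They were named after their values were seen.

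Muc13 encodes a transmembrane mucin of the coat over the microvilli. Muc13 (row 7094008) stood at 11.97 and 11.58 in vehicle rats and 11.87 and 11.55 in aldosterone rats. In each group replicate 1 was the higher rat, and the groups overlapped. The difference was -0.064 with an SE of 0.20 and an interval from -0.61 to 0.48. Without vehicle replicate 1 it was 0.13, and without aldosterone replicate 2 it was 0.095. Of the other 4 measured transmembrane mucins, Muc15 and Muc20 had means of 1.67 and 2.39, near the floor, and the treated rats lay 0.082 and 0.23 apart. Muc1 and Muc4 differed more between the treated rats than Muc13 did. Muc1, the broadly expressed epithelial mucin, stood at 8.78 and 8.44 in vehicle rats and at 6.41 and 8.48 in aldosterone rats. Muc4 stood at 6.22 and 5.98 against 4.83 and 5.94. For both, aldosterone replicate 1 was the low rat and the other treated rat lay 0.043 or 0.044 from a control. The same rat was low in the goblet cell gene Tff3, at 9.44 against 10.74 to 11.30 in the other rats. Agr2 was also lowest there, at 7.69 against 7.89 to 8.52, but the other 3 of the 5 measured goblet cell markers were not. Atoh1 was at 8.27, level with vehicle replicate 1, and Zg16 (6.39) and Spink4 (1.91, near the floor) lay above both controls. The summed signal of the 5 markers, to which Tff3 adds the most, was 10.34 on the log2 scale in that rat and from 11.27 to 11.97 in the others. Zg16 and Spink4 were named after their values were seen. Muc13 did not follow this pattern, since its value in that rat, 11.87, lay inside the range of the vehicle rats. Whether a different share of goblet cells bears on the values of Muc1 and Muc4 was not tested.

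Krt20 is the keratin of mature surface cells in the gut. Krt20 (row 7082479) stood at 11.18 and 11.14 in vehicle rats and 11.19 and 11.26 in aldosterone rats. It was among the most even of the 8 genes, with all 4 rats within 0.12. The difference was 0.067 with an SE of 0.10, and its interval, -0.21 to 0.34, was the narrowest of the 8. Krt8, the keratin shared by all simple epithelia, stood at 11.00 and 10.80 against 10.98 and 10.82, a difference of -0.0044. Krt19 stood at 11.63 and 11.34 against 11.31 and 11.28, a difference of -0.19 with an interval from -0.58 to 0.20. The row named for Krt18, the usual partner of Krt8, lay just above the floor, at 3.60 and 3.32 against 3.68 and 4.28. Its groups did not overlap, and its difference of 0.52 had an interval from -0.17 to 1.20. Whether the probes of that row read Krt18 was not tested. Krt23 lay near the floor, with a mean of 2.13 and a difference of -0.077.

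Fabp2, the intestinal fatty acid-binding protein of absorptive cells, was the exception in size of difference. Fabp2 (row 7198705) stood at 3.65 and 3.77 in vehicle rats and 4.25 and 4.74 in aldosterone rats. Both treated rats were higher than both controls, with 0.48 between the nearest, and the treated rats lay 0.49 apart. The difference was 0.78, or 1.72-fold, with an SE of 0.20 and a 95% interval from 0.23 to 1.34 (unadjusted p = 0.0168). It did not pass after adjustment over all rows (adjusted p = 0.891, and 0.877 with the prior that followed level). With the prior that followed level the SE was 0.29 and the interval ran from 0.15 to 1.42. The row of Fabp2 lay just above the floor, unlike those of the other 7 genes, and values near the floor can understate a fold. Whether they did so here was not tested. When 1 rat was left out the difference ran from 0.54, without aldosterone replicate 2, to 1.03, without aldosterone replicate 1. No other measured fatty acid-binding protein gene lay above the floor. Fabp1, Fabp3, Fabp4, Fabp6 and Fabp7 had means from 1.62 to 2.03. Fabp1, the liver type that is abundant in small intestine, was named after its values were seen.

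The promoter of Fabp2 is shown because it is the gene of the 8 with an unadjusted p under 0.05. It comes from RefSeq (GRCr8, chr2:213724379-213724628, plus strand). In capitals are matches, on either strand, to the letters of the GATA factors (AGATAA, in 10.3% of promoters), HNF4 (CAAAGT) and the CDX factors (TTTAT, in 39.3%), which are regulators of intestinal genes.
Fabp2: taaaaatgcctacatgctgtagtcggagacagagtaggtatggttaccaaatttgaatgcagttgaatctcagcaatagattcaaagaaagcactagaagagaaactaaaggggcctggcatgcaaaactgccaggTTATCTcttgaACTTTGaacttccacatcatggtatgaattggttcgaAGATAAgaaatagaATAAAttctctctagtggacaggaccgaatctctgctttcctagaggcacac
There was no match to the corticosteroid half-site in this window. Over the 8 promoters the CDX letters were found in 4 (Cdhr5, Fabp2, Krt20 and Muc13), HNF4 in Cdhr2 and Fabp2, and GATA in Fabp2 and Muc13. In Muc13 the CDX and GATA matches overlap each other, and in Krt20 a CDX match lies inside a TATA box (TATAAA, in 12.9%).

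**Figure D3:**
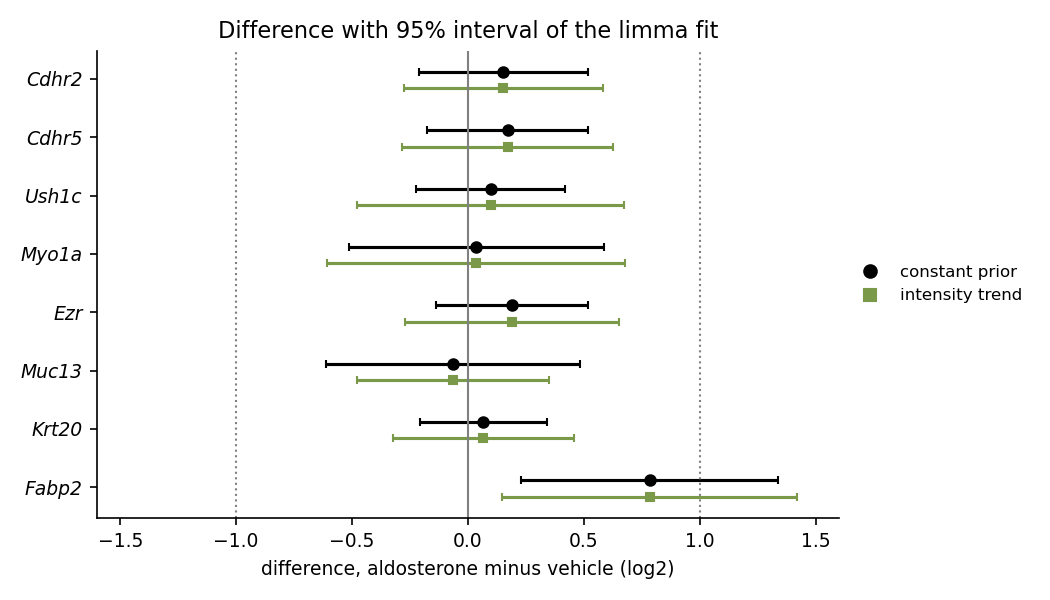
Difference in level between groups (horizontal axis, log2, aldosterone minus vehicle) for the 8 genes, with 95% intervals from limma with a constant prior (black circles) and with a prior that follows level (green squares); dotted lines mark a 2-fold change. The intervals of 7 genes hold 0 and stay inside the dotted lines, and that of Fabp2 runs from 0.23 to 1.34 with the constant prior.

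In 5 of the 8 genes (Cdhr2, Cdhr5, Ezr, Krt20 and Fabp2) both aldosterone rats lay above both vehicle rats, and in none was the reverse seen. Of all rows, 16.7% showed the first pattern and 11.1% the second. Which genes did so changed with the scaling of the arrays. After quantile normalization there were 3 (Ezr, Fabp2 and Ush1c), beside 17.2% of all rows with the first pattern and 15.4% with the second. After centring on the median of all rows there were 2 (Cdhr2 and Fabp2), beside 9.61% and 17.2%, so that the second pattern became the commoner one. After centring on the median of rows whose mean was at least 4 there were 4 (Cdhr5, Ezr, Fabp2 and Ush1c), beside 12.6% and 6.74%. Fabp2 was the gene found under each of these scalings. In the other 4 genes the nearest rats of the groups lay 0.0093 to 0.044 apart, while the medians of the 4 arrays over all rows ran from 2.22 to 2.43.

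The wider apparatus of the brush border was examined through 66 further measured genes in 9 functional groups, Myo5b being in 2 of them. In limma 0 passed the adjusted threshold with either prior (smallest adjusted p = 0.853 with the constant prior). Of all rows, 0% passed with the constant prior and 0.108% with the prior that followed level. With the constant prior 5 had an unadjusted p under 0.05, beside 4.53% of all rows. The differences were above 0 in 31 and below 0 in 35, with a median of -0.015. Of all rows, 58.3% were above 0. Among 14 genes of the actin core and its motors, 5 were higher and 9 lower. Cobl, an actin nucleator needed for the terminal web and microvilli, stood at 6.41 and 6.67 in vehicle rats and at 8.38 and 7.11 in aldosterone rats. Both treated rats were above the controls, replicate 1 by far more, and the interval of its difference ran from -0.066 to 2.48 with the constant prior and from 0.35 to 2.07 with the prior that followed level. Baiap2l1, a membrane-curving actin regulator at microvillus tips, stood at 7.88 and 7.53 against 7.31 and 7.20, the lower values being those of the treated rats. Its difference was -0.45, with intervals from -0.89 to -0.0049 and from -1.10 to 0.20 in the same order. For both genes, then, the prior decided whether the interval held 0. Myo6, a motor that moves toward the base of microvilli, stood at 7.16 and 7.01 against 6.94 and 6.60. Vill, a relative of villin, stood at 4.42 and 4.85 against 4.01 and 4.48.

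Of 12 measured linkers and scaffolds 5 were higher and 7 lower. Rap2a, a small GTPase that acts upstream of ezrin phosphorylation, stood at 4.26 and 4.36 against 3.62 and 4.07, and Nherf4 at 3.40 and 3.82 against 3.57 and 3.29. Of 8 genes of apical membrane traffic 4 were higher and 4 lower. Rab11a, the small GTPase of apical recycling, stood at 9.22 and 9.22 against 9.09 and 8.93, and Vamp8, a vesicle fusion protein gene, at 9.39 and 9.58 against 9.60 and 9.99. In both the groups lay apart, but in opposite directions. Myo5b, the motor of apical recycling vesicles, and Rab11fip5 had overlapping groups, with differences of 0.17 and -0.14. Of the 8 measured digestive enzymes of the brush border, 5 had a mean below 3, near the floor. In this group 7 were higher and 1 was lower in aldosterone rats, with a median difference of 0.18. Mep1a, the alpha subunit gene of the protease meprin, stood at 9.19 and 9.39 in vehicle rats and at 9.82 and 9.74 in aldosterone rats. This was 1.40-fold, with an interval of the log2 difference from 0.15 to 0.82 (adjusted p = 0.884). Dpp4, the dipeptidyl peptidase gene, stood at 3.77 and 4.09 against 5.08 and 4.36, and Mme, which encodes neprilysin, at 2.11 and 3.21 against 4.53 and 3.52. In all 3 genes the treated rats were the higher ones. Which intervals held 0 depended on the prior. With the constant prior those of Dpp4 (-0.0079 to 1.59) and Mme (-0.093 to 2.82) did. With the prior that followed level they ran from 0.090 to 1.49 and from 0.52 to 2.21, and that of Mep1a, from -0.027 to 1.00, held 0 instead. Anpep, which encodes aminopeptidase N, had a mean of 2.20, near the floor.

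Among 11 transcription factors of the enterocyte programme 4 were higher and 7 lower. Hnf4a, a driver of brush border genes, stood at 11.07 and 10.89 against 10.93 and 10.68, with overlapping groups. Klf4, a factor of cells that have left the cycle, stood at 11.46 and 11.17 against 11.18 and 10.68. Smad4, the shared mediator of TGF-beta and BMP signals, stood at 9.19 and 8.98 against 9.47 and 9.26. It was the higher in both treated rats, with a difference of 0.28 and an interval from -0.11 to 0.67. Maf, which in the small intestine shapes mature enterocytes, stood at 6.68 and 7.36 in vehicle rats and at 5.93 and 5.85 in aldosterone rats. It had the smallest adjusted p of the 66 genes, 0.853, with a difference of -1.13 and an interval from -1.85 to -0.42.

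**Figure D4:**
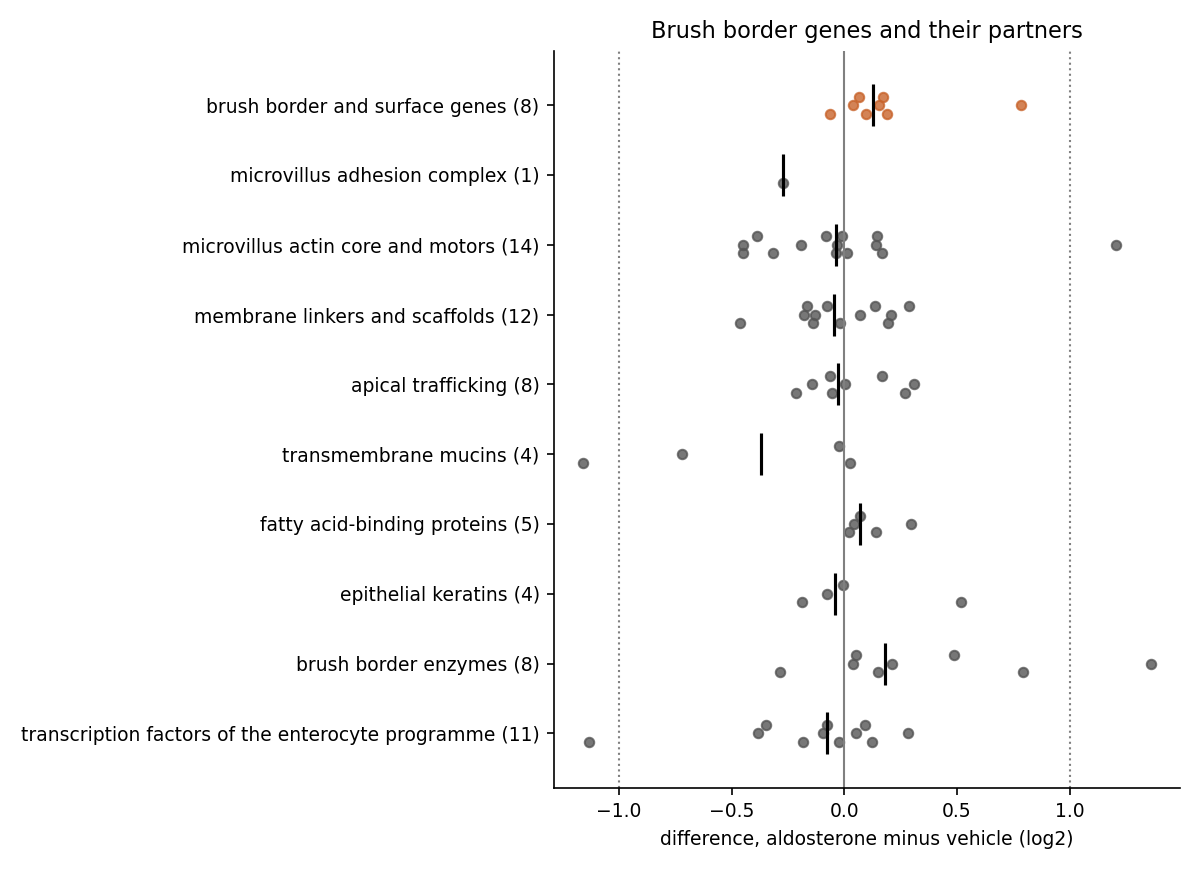
Difference between groups (horizontal axis, log2, aldosterone minus vehicle) of each measured brush border and surface gene (orange) and of the other measured genes of each functional group (grey); 1 point is 1 gene, black bars are medians, the number in brackets is the count of genes, and dotted lines mark a 2-fold change. The points gather around 0, with Cobl and Mme beyond the right line and Muc1 and Maf beyond the left one.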

How the data were processed

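Surface colonocytes from 4 rats, 2 per group, were measured on 1 exon array each. The authors deposited log2 levels, which ran from 1.36 to 13.7, the range from which the log2 scale was read. RMA, Partek and Affymetrix Expression Console are listed, per the submitters' processing notes, without versions or roles. For the genome build and detection calls, the sources used here give nothing. The number of arrays limits the precision.

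Of 19403 rows, 13327 had 1 gene symbol in the platform annotation, 620 had several and 5456 had none here; symbols were checked by Entrez ID against RefSeq (GRCr8), which changed 0. All rows were fitted in R 4.3.3 with limma 3.58.1 (a two-sided test, treatment the sole term, eBayes with a constant prior variance), and the Benjamini-Hochberg adjustment ran over all of them. Python 3.11.15 with pandas 2.3.3 and matplotlib 3.10.9 made tables and plots. The fits were also run on simulated data with independent normal noise whose spread followed level alone. Those data are simpler than these arrays, so the runs do not show how the fits perform here.

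The 8 genes and the lists were chosen from general knowledge with earlier results of these data known. All measured genes of the set are named, and the 4 others per functional list with the smallest p. The rule also allowed up to 3 genes per cell type list with the highest mean, of which some are given, and Scnn1g and Sgk1; other aldosterone targets are not described. Promoters were read from the RefSeq table, 250 bases before each start, both strands; all 8 matched. Alternatives were quantile normalization, centring, filters on low rows, an intensity trend, a robust prior, the replicate block, averaging a gene's rows and leaving out each rat. Centring on rows with a mean of 4 or more and the trend with the block were chosen after seeing the data, as were all alternatives for the lists.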

Additional observations from a re-analysis of the deposited data

How the results depend on the processing

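Over 14 alternatives the 8 differences gave 112 values, of which 107 kept their direction and 5 turned, and none passed the threshold (lowest adjusted p = 0.228, for Fabp2 with arrays centred on rows with a mean of 4 or more). Those that turned were Myo1a (-0.021 with arrays centred on the median of all rows, and -0.21 to 0.28 when 1 rat was left out) and Muc13 (-0.26 to 0.13 when 1 rat was left out); the cause was not tested. With 1 rat left out, the group with a single rat is assumed to vary like the other. The adjusted p of Fabp2 ran from 0.228 to 1.00. Over all rows the count of calls was 0 with the constant prior. It was 1 and 12 with rows below the median of row means or below a mean of 4 left out, so that fewer rows were tested. It was 21 with the intensity trend, 6 with that trend and the replicate block, and 192 with arrays centred on rows with a mean of 4 or more, a fit in which limma took 1 common spread for all rows. In that last fit 6 genes passed among the 66 of the partner lists and the 63 of the marker lists, beside 192 of 19403 rows. Which genes they were is not given here. In the other fits that kept all 4 rats no gene of these lists passed.

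The labels number the rats 1 and 2 in both groups without saying what they share. The deviations of rats with the same number correlated at 0.148 over all rows, across genes, and at 0.0934 over rows whose mean was at least 4, and 2 pairs cannot show a pairing. With the replicate block 0 rows passed (1282 with an unadjusted p under 0.05), 0 of the 8 genes did, the median difference stayed at 0.13, and Fabp2 had an adjusted p of 0.641.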

Other observations

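Beyond the brush border, 15 of the 17 measured surface colonocyte markers had a difference above 0, where 58.3% of all rows and 48.0% of rows whose mean was at least 7 did. The count was 13 after quantile normalization or centring on the median of all rows, and 12 without vehicle replicate 1. The median difference was 0.29, and 0.13 without vehicle replicate 1. A lean above 0 was also seen in lists of other cells, most of whose genes lay near the floor. Of the 13 measured crypt base and dividing cell markers 12 were above 0, though 10 of the 13 lay near the floor. Above 0 were also 4 of 5 goblet, 3 of 3 tuft, 7 of 10 immune, 5 of 7 enteroendocrine and 5 of 8 stroma, muscle and vessel markers. In the same order, 1, 1, 8, 6 and 7 of these markers had a mean below 3. The share of rows above 0 differed with level, so these counts and that of the surface list have unlike backgrounds. None of the 17 passed the adjusted threshold in limma with either prior (2 had an unadjusted p under 0.05 with the constant prior and 4 with the prior that followed level, beside 4.53% of all rows with the first). Slc26a3, the chloride-bicarbonate exchanger of the surface, stood at 11.96 and 12.30 in vehicle rats and 12.75 and 12.61 in aldosterone rats, with a difference of 0.55 and an interval from 0.11 to 0.99. Genes named next were chosen after their values were seen. Lgals3, which encodes the apical lectin galectin-3, stood at 11.33 and 11.48 against 11.83 and 11.87. Slc9a3, the sodium-proton exchanger NHE3 that the NHERF scaffolds hold in the brush border, stood at 2.48 and 3.99 in vehicle rats and at 8.39 and 3.44 in aldosterone rats. A single rat, aldosterone replicate 1, carried that difference of 2.68. The interval of the difference ran from -2.29 to 7.65 with the constant prior and from 0.33 to 5.03 with the prior that followed level. Zg16, a lectin of goblet cell granules, stood at 5.14 and 4.45 against 6.39 and 8.06. Its adjusted p in limma was 0.891 with the constant prior and 0.134 with the prior that followed level.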
